A study of Mus musculus with 16 samples.

Results

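Interferon-stimulated genes are the transcripts that a cell switches on when it senses an interferon. The list described here was written by symbol and held 45 genes, 35 that answer mainly to type I interferon and 10 that answer mainly to interferon gamma (the IFN-γ type). A gene counted as measured where a probe set carried its symbol and no other, and the brightest such probe set stood for it. By that rule 41 of the 45 were measured, 33 of the type I genes and 8 of the IFN-γ type, out of 18820 genes on the array. Ifi44 had no probe set under its symbol in the annotation used here, and Parp9, Igtp and Ifi47 were read only by probe sets that they share with a neighbouring gene.

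The arrays measured RNA of whole liver from male mice 7 days old, in 4 genotypes of 4 mice each, with 1 array per mouse. The IKKβ triple KO lacks TRAF2, caspase-8 and IKKβ in liver parenchymal cells. The RIPK3 triple KO shares the first 2 of these deletions and carries a constitutive deletion of Ripk3 in every cell. The double KO has the TRAF2 and caspase-8 deletions alone, again in parenchymal cells. The WT mice were littermates with the floxed alleles and no Cre. All conditional deletions were driven by the alfp-Cre transgene, so the other cells of the liver keep these genes, and all mice were of a mixed C57/BL6 - SV129Ola background. The series title puts the question: how NF-κB, for which IKKβ is an activating kinase, bears on necroptosis, the lytic cell death that RIPK3 carries out. Because whole liver was measured, fewer cells of a type and less RNA per cell cannot be told apart.

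Type I interferons bind the receptor IFNAR, whose kinases activate a complex, with STAT2 and IRF9 among its parts, that binds the interferon-stimulated response element (ISRE) in target promoters. Interferon gamma binds its own receptor and acts through a different element, the gamma-activated sequence (GAS). The IFN-γ type genes include the transcription factor Irf1, guanylate-binding and immunity-related GTPases that attack intracellular pathogens, and parts of the machinery that cuts and carries peptides to MHC class I. Many of them also answer to type I interferon, so the division is one of emphasis.

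Both elements can be seen in the promoters of members that the results turn on. The windows below run from 250 bases before the start of transcription to 50 after it, 5′ to 3′ on the strand of the gene, and are RefSeq sequence of the GRCm38.p6 build. Capitals mark matches to the ISRE letters (GAAA, any 2 bases, GAAA, on either strand) or to the GAS letters TTCNNNGAA, which read the same on both strands. Samd9l, Ifit1, Oas3 and Phf11a are shown because they had the largest differences among the members that passed a test. Irf1 is shown beside them as an IFN-γ type gene with a GAS match, and was picked after its letters had been seen. The windows lie at chr6:3399522-3399821 on the minus strand for Samd9l, chr19:34640639-34640938 on the plus strand for Ifit1, chr5:120777610-120777909 on the minus strand for Oas3, chr14:59297473-59297772 on the minus strand for Phf11a and chr11:53769764-53770063 on the plus strand for Irf1.
Ifit1: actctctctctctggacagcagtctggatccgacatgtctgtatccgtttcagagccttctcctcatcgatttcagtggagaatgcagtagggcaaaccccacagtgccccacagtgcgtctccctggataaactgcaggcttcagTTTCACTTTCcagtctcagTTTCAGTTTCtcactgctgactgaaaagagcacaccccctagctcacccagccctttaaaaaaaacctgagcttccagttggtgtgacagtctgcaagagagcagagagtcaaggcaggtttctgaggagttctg
Oas3: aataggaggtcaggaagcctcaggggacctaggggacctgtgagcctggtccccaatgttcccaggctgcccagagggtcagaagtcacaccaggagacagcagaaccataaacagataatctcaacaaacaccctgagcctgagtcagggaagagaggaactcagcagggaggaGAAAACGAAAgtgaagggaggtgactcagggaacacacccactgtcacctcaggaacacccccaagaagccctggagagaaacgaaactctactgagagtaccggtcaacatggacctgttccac
Phf11a: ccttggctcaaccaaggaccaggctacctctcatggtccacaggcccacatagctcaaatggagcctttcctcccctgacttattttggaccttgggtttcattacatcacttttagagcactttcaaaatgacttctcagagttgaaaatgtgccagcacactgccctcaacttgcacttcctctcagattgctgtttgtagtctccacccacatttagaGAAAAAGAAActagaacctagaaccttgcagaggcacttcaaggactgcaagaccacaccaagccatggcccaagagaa
Samd9l: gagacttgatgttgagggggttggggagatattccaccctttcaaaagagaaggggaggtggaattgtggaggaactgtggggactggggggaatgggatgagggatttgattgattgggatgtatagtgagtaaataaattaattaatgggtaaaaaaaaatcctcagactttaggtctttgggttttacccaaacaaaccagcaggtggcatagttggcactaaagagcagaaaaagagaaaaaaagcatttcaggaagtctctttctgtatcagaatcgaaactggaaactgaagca
Irf1: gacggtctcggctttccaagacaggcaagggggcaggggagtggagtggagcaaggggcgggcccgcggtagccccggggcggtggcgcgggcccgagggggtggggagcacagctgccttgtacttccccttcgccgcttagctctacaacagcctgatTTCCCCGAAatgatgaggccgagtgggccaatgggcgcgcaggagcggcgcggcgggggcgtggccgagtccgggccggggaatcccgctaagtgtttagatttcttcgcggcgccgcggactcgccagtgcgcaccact

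In Ifit1 the ISRE letters occur as TTTCACTTTC and TTTCAGTTTC, beginning at −104 and −85 relative to the start. Oas3 holds GAAAACGAAA beginning at −75, and Phf11a holds GAAAAAGAAA beginning at −29. The Irf1 match to the GAS letters is TTCCCCGAA, beginning at −90, and Samd9l has neither set of letters in this window. A window was at hand for 32 of the 41 measured members. The ISRE letters were in the windows of 12 of 25 type I genes (48.0%) and 3 of 7 IFN-γ type genes (42.9%), against 3.99% of all 27025 genes with a window. The GAS letters were in those of 6 of 25 type I genes (24.0%) and 2 of 7 IFN-γ type genes (28.6%), against 9.55% of all genes. In Bst2 an ISRE and a GAS match overlap, and the windows of Tap1 and Psmb9, which are transcribed away from each other, share 275 bases. A match to these letters is a description of the window and not evidence of binding.

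Values are log2 intensities that the authors had normalised with RMA, so a difference of 1 is a doubling. Array medians lay between 4.90 and 5.05, and arrays of 1 genotype correlated at 0.981 to 0.991 across all probe sets. Hepatocyte markers averaged 12.35 to 12.82 on the 16 arrays, near the top of the scale, as the tissue label says. Levels below the array medians, such as those of Oas3, Phf11a and Samd9l in the RIPK3 triple KO, are not shown to be above background, so folds against them may understate the difference. Of the targeted genes, Casp8, Ripk3 and Ikbkb were lowest in the groups labelled as lacking them. Traf2 went against the labels: it read 6.87 to 7.53 on the 12 arrays labelled as deleted and 6.21 to 6.40 on the WT arrays. Where its probes lie relative to the deleted exons is not given in the sources used here, so genotype names stand throughout for the arrays so labelled. In the array names IKKβ triple KO and WT share 1 plate column and the other genotypes another. Plate rows A to D hold only RIPK3 triple KO and WT arrays, and rows E to H only IKKβ triple KO and double KO arrays. Plate position and genotype therefore cannot be told apart. WT replicate 1 stood apart in cell markers, with a macrophage marker mean of 9.60 against 8.54 to 8.61 on the other WT arrays and a neutrophil marker mean of 10.21 against 8.74 to 9.10. Comparisons between genotypes used 1 limma model over the 16 arrays, with p-values adjusted over all 35556 probe sets (Benjamini-Hochberg) and a threshold of 0.05. The 6 comparisons share groups, so they are not independent of each other.

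Type I genes as a list were highest in the IKKβ triple KO. Their mean level was 6.88, 7.00, 7.45 and 7.26 on the 4 IKKβ triple KO arrays, 6.56, 6.63, 6.65 and 6.37 on the RIPK3 triple KO arrays, 6.71, 6.58, 6.77 and 6.66 on the double KO arrays, and 7.02, 6.57, 6.55 and 7.02 on the WT arrays. The IKKβ triple KO arrays lay above every RIPK3 triple KO and double KO array, while 2 of the 4 WT arrays reached into the IKKβ triple KO range. IFN-γ type genes were closer together: 8.43, 8.26, 8.44 and 8.40 in the IKKβ triple KO, 8.38, 8.21, 8.29 and 7.93 in the RIPK3 triple KO, 8.28, 8.10, 8.27 and 8.20 in the double KO, and 8.31, 8.04, 7.90 and 8.37 in WT. Here the 4 genotypes overlapped. Group means were 7.14 ± 0.25, 6.55 ± 0.13, 6.68 ± 0.08 and 6.79 ± 0.27 for type I genes, in the order IKKβ triple KO, RIPK3 triple KO, double KO and WT. The same means for IFN-γ type genes were 8.38 ± 0.08, 8.20 ± 0.20, 8.21 ± 0.08 and 8.16 ± 0.22 (SD, n = 4 each).

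**Figure D1:**
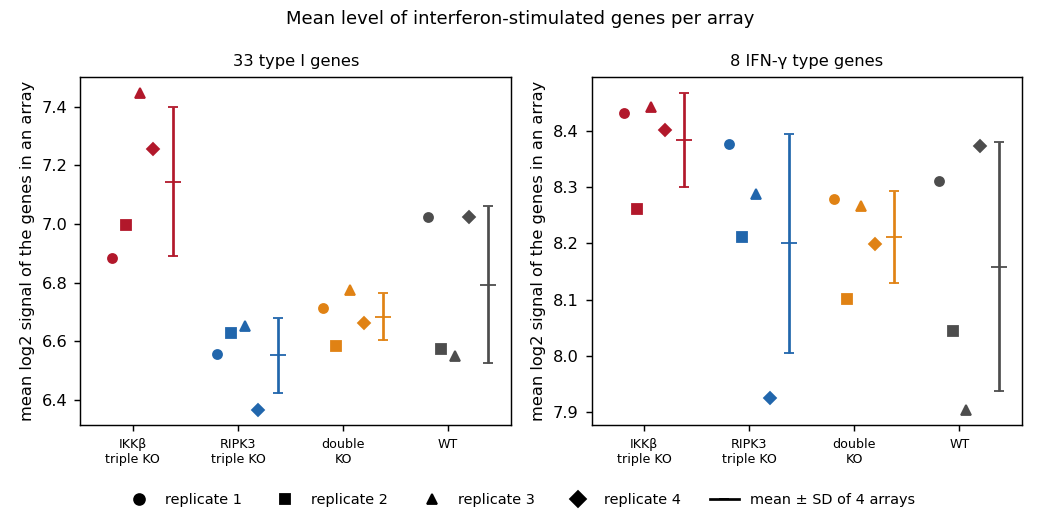
Mean log2 intensity of the 33 type I genes and the 8 IFN-γ type genes on each array (points), with the group mean and SD, by genotype. In the type I panel the IKKβ triple KO arrays sit at 6.88 to 7.45, above all double KO (6.58 to 6.77) and RIPK3 triple KO (6.37 to 6.65) arrays, while WT spans 6.55 to 7.02; the IFN-γ type panel shows overlapping groups.

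Member by member, most type I genes were highest in the IKKβ triple KO. The highest of the 4 group means was in the IKKβ triple KO for 28 of the 33 type I genes, in the RIPK3 triple KO for 3, in the double KO for 2 and in WT for 0. The lowest was in the RIPK3 triple KO for 21, the double KO for 7, WT for 4 and the IKKβ triple KO for 1. Of the 8 IFN-γ type genes, 5 had their highest mean in the IKKβ triple KO. The genes of the list also moved together from mouse to mouse. Within the IKKβ triple KO, replicate 3 was the highest array for 26 of the 33 type I genes and replicate 1 the lowest for 21. Within WT, replicates 1 and 4 were the highest for 15 and 14 genes. The same counts were not made over all genes, so a shift of many genes on an array was not tested. Over all probe sets, IKKβ triple KO replicate 1 and WT replicate 1 had low array weights (0.60 and 0.46, against 1.58 for IKKβ triple KO replicate 3). The median SD of a type I gene over the 4 mice was 0.256 in the IKKβ triple KO, 0.203 in the RIPK3 triple KO, 0.166 in the double KO and 0.350 in WT, while the median over all genes lay between 0.137 and 0.161. Mice of 1 genotype, WT included, thus spread more in type I genes than in the typical gene.

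**Figure D2:**
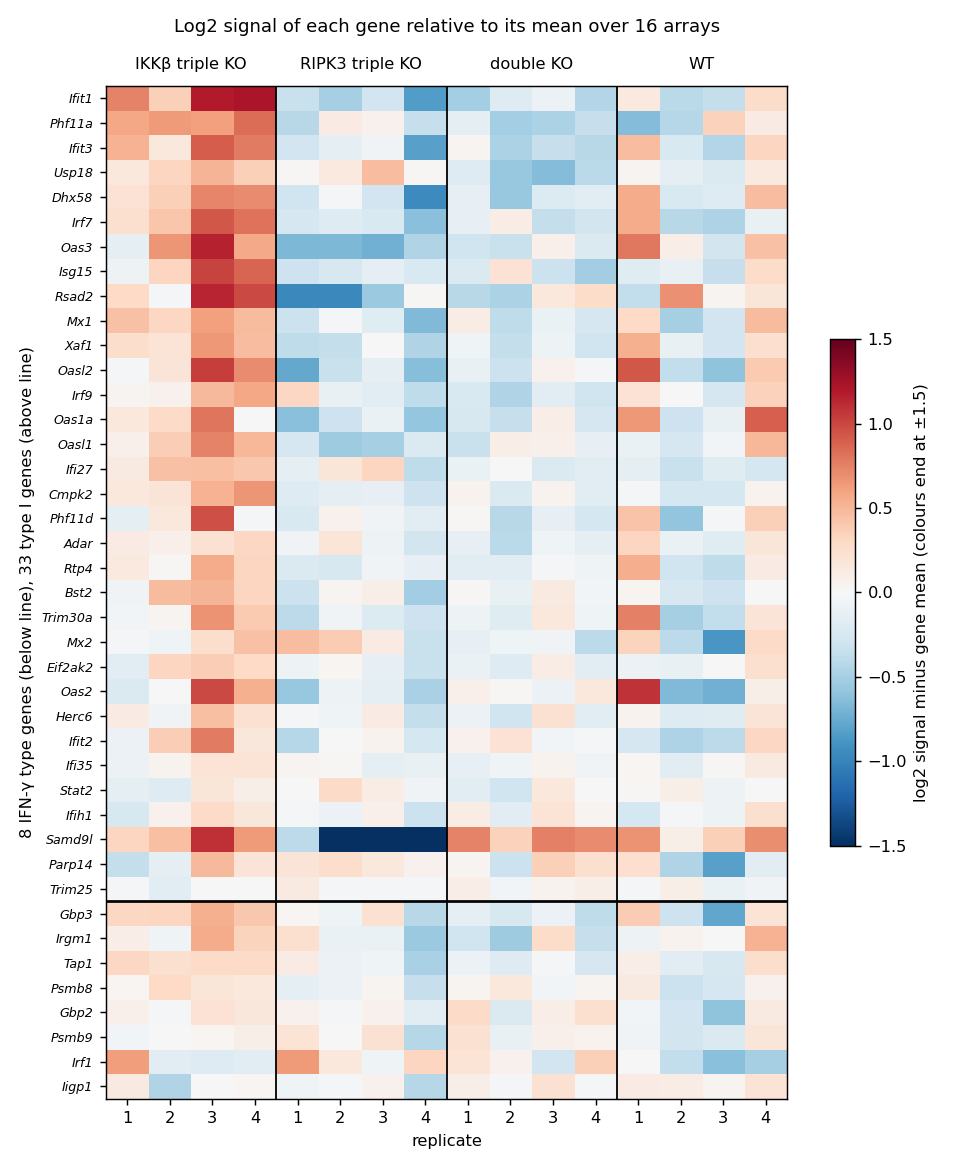
Level of each measured member on each of the 16 arrays, as the log2 difference from that gene's mean over all arrays, with genotypes in blocks of 4 and colours ending at 1.5 in either direction. The IKKβ triple KO block is mostly above the mean for type I genes, and Samd9l stands out as low on the 4 RIPK3 triple KO arrays (3.70 to 5.87).

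Set against the double KO, the IKKβ triple KO asks what the further loss of IKKβ in parenchymal cells does to these genes. Type I genes were higher, and Ifit1, Phf11a and Usp18 passed the test. That is 3 of 33 type I genes higher and 0 lower, where 0.117% of all genes were called higher in this comparison. Differences were above 0 for 30 of the 33, with a median of 0.45 (range −0.10 to 1.18), where the median over all genes was −3e-04. For 13 of the 33 every IKKβ triple KO array was above every double KO array, a pattern seen in 2.78% of all genes.

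Ifit1 encodes a protein that binds viral RNA and blocks its translation. It read 7.31, 6.92, 7.75 and 7.79 in the IKKβ triple KO and 6.06, 6.38, 6.48 and 6.13 in the double KO. The groups did not overlap, and the difference was 1.18 ± 0.21 (SE), or 2.27-fold, with a limma adjusted p of 0.0128. The Ifit1 call ended without double KO replicate 1 or 4, or IKKβ triple KO replicate 3 or 4 (adjusted p up to 0.06), and in a model of those genotypes alone (0.0649). Phf11a, a PHD finger gene, read 5.11, 5.17, 5.15 and 5.38 in the IKKβ triple KO against 4.39, 4.03, 4.06 and 4.19 in the double KO. Again the groups were apart, by 1.04 ± 0.19 or 2.05-fold (adjusted p 0.0182), a call that ended without replicate 3 or 4 of either group (adjusted p up to 0.0735). Usp18 removes ISG15 from proteins and also damps the type I interferon receptor. Its values were 7.76, 7.92, 8.11 and 7.96 in the IKKβ triple KO and 7.41, 7.03, 6.95 and 7.20 in the double KO. Usp18 was 0.79 ± 0.13 higher (1.73-fold, adjusted p 0.00769), and alone among the 3 it passed with each of the 8 arrays left out in turn (adjusted p up to 0.0379).

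The other type I genes did not pass, and their values describe how far the pattern runs. Among effectors with the groups apart, Ifit3 differed by 0.89 (adjusted p 0.107), Mx1, an antiviral GTPase, by 0.61, Xaf1 by 0.59, Ifi27 by 0.48, Cmpk2 by 0.45, Adar, an RNA-editing enzyme, by 0.37 and Rtp4 by 0.36. Dhx58, which encodes the RNA sensor LGP2, differed by 0.77 (adjusted p 0.169). Irf7, the transcription factor that amplifies interferon production, differed by 0.77 (adjusted p 0.153). It read 7.71, 7.89, 8.40 and 8.28 in the IKKβ triple KO and 7.34, 7.57, 7.10 and 7.19 in the double KO. Irf9, the DNA-binding part of the type I complex, differed by 0.58 (adjusted p 0.178). In each of these genes the groups were apart, though none passed the threshold set over all probe sets.

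Isg15, the ubiquitin-like modifier, read 5.67, 6.07, 6.77 and 6.63 in the IKKβ triple KO and 5.53, 5.97, 5.43 and 5.23 in the double KO. Its groups overlapped, since IKKβ triple KO replicate 1 lay below double KO replicate 2. Among the oligoadenylate synthetase genes, whose products activate RNase L, the differences were 0.75 for Oas3, 0.49 for Oas1a and 0.29 for Oas2. For the related Oasl1 and Oasl2 they were 0.49 and 0.58. Rsad2, which encodes viperin, differed by 0.71, Phf11d by 0.44, Mx2, Trim30a and Bst2 (tetherin) by 0.31 each, Eif2ak2 (the kinase PKR) by 0.29, Herc6 by 0.27, Ifit2 by 0.26 and Ifi35 by 0.14. At the low end stood Stat2 at 0.06, the RNA sensor Ifih1 at 0.02, Samd9l at −0.01, Parp14 at −0.04 and Trim25 at −0.10, whose adjusted p-values lay between 0.768 and 0.998. Stat2 and Ifih1 are themselves parts of the pathway, and Trim25 is a ubiquitin ligase that acts on the RNA sensor RIG-I.

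None of the 8 IFN-γ type genes passed in this comparison. At an unadjusted p under 0.05, 3 of the 8 were higher, beside 18 of the 33 type I genes and 3.89% of all genes. The median difference of the 8 was 0.06. Irf1 read 8.50, 7.70, 7.68 and 7.72 in the IKKβ triple KO and 8.07, 7.94, 7.58 and 8.23 in the double KO, a difference of −0.06 (95% interval −0.50 to 0.39). Gbp2, a guanylate-binding GTPase, read 7.69, 7.60, 7.83 and 7.78 in the IKKβ triple KO against 7.91, 7.40, 7.72 and 7.85 in the double KO, a difference of 0.01 (−0.30 to 0.31). For both the groups overlapped throughout. Iigp1, an immunity-related GTPase, read 10.12, 9.54, 9.99 and 10.01 in the IKKβ triple KO and 10.07, 9.95, 10.21 and 9.95 in the double KO, a difference of −0.13 (−0.41 to 0.14). Psmb9, an immunoproteasome subunit, read 7.74, 7.79, 7.81 and 7.87 in the IKKβ triple KO against 8.00, 7.67, 7.85 and 7.84 in the double KO, a difference of −0.04 (−0.33 to 0.25). Those intervals leave out the 0.45 that is the median of the type I genes. The peptide transporter gene Tap1 was unlike them. It read 8.30, 8.23, 8.28 and 8.27 in the IKKβ triple KO and 7.90, 7.79, 7.95 and 7.73 in the double KO, with no overlap and a difference of 0.42 ± 0.13 (adjusted p 0.211). Gbp3 also had its groups apart, at 0.61 (adjusted p 0.281), and passed in a model of those genotypes alone (0.046). Irgm1 and Psmb8 differed by 0.46 and 0.12, with adjusted p-values of 0.495 and 0.853.

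**Figure D3:**
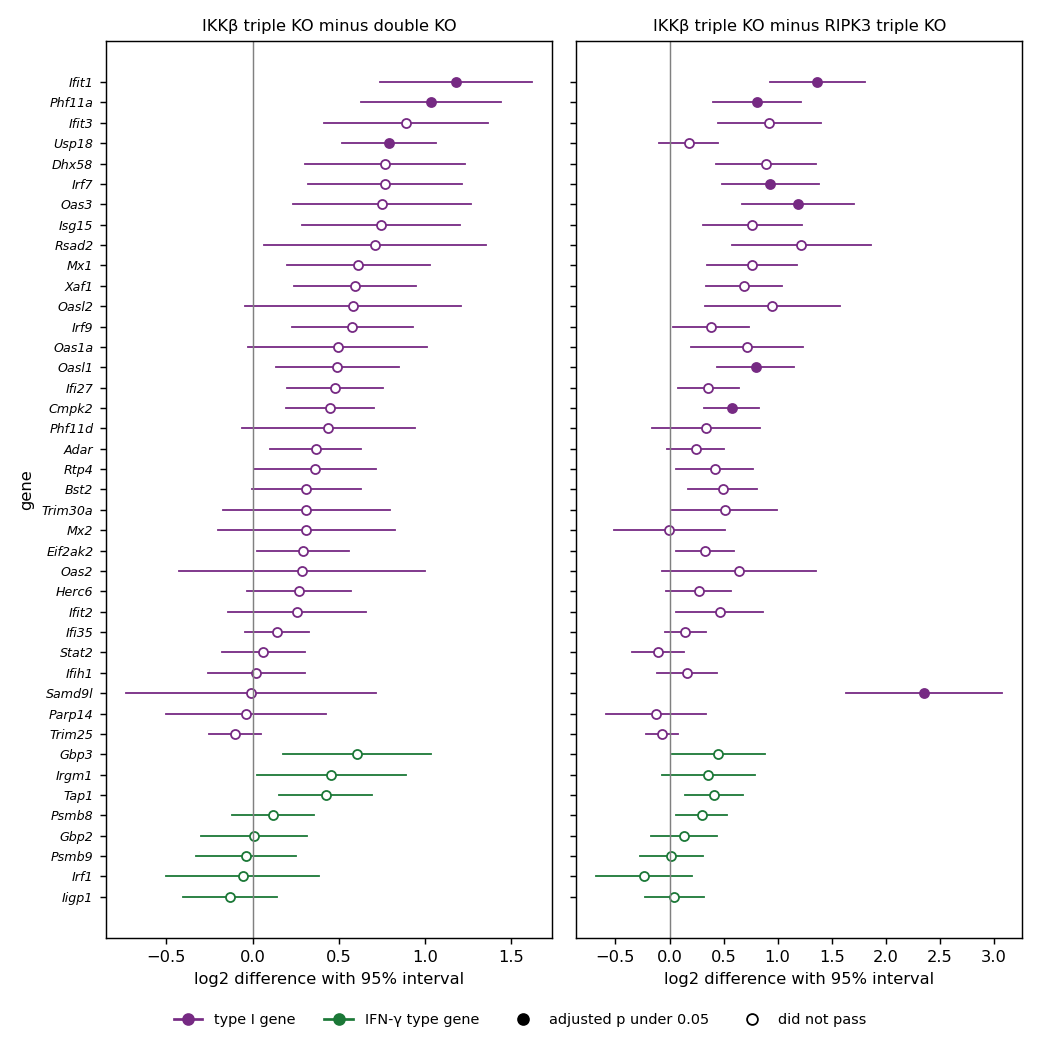
Log2 difference of each measured member, with its 95% interval from limma, for the IKKβ triple KO minus the double KO (left) and minus the RIPK3 triple KO (right); type I genes stand above IFN-γ type genes, and filled points passed an adjusted p of 0.05. Most type I points lie right of 0 (medians 0.45 and 0.51), with 3 filled in the left panel, 7 in the right and none among IFN-γ type genes.

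By promoter, the 12 type I genes with ISRE letters in the window had a median IKKβ triple KO minus double KO difference of 0.60 (range 0.02 to 1.18, all 12 above 0). The 13 with a window and no match had a median of 0.44 (range −0.10 to 0.77, 11 above 0), and the 8 without a window 0.42. The ranges overlap over most of their length, and no test was made of this description. Each of 4 plate rows held 1 IKKβ triple KO and 1 double KO array, in different columns. Within these rows the type I mean was higher in the IKKβ triple KO by 0.17, 0.41, 0.67 and 0.59. The IFN-γ type mean was higher there by 0.15, 0.16, 0.18 and 0.20. All IKKβ triple KO type I means lay above all double KO means, so any pairing of arrays would give that direction. For type I genes the rows therefore add nothing to the direction.

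The cell markers were examined beside this result. No marker of macrophages, plasmacytoid dendritic cells, neutrophils, T and NK cells, B cells, erythroid cells, endothelium or hepatocytes passed the test between the IKKβ triple KO and the double KO. Only 0.117% of all genes were called higher in this comparison and 0.903% lower, so the lack of a call says little about these cells. The mean of 9 macrophage markers was 8.81 to 8.99 in the IKKβ triple KO and 8.88 to 9.06 in the double KO. The mean of 6 plasmacytoid dendritic cell markers, the cells that make the most type I interferon, was 5.57 to 5.93 in the IKKβ triple KO and 5.70 to 5.90 in the double KO. Neutrophil markers averaged 8.65 to 9.62 in the IKKβ triple KO and 8.34 to 9.60 in the double KO. Erythroid markers averaged 6.76 to 8.36 in the IKKβ triple KO and 6.62 to 8.05 in the double KO, with 5 of 6 higher and a median difference of 0.45, the same size as that of the type I genes. Of the B cell markers 5 of 6 were higher, with a median of 0.20. The IKKβ triple KO replicates 3 and 4, the highest in type I genes, also had the highest erythroid means of their genotype (8.21 and 8.36 against 7.23 and 6.76) and the highest neutrophil means (9.29 and 9.62 against 8.65 and 8.68). The part of these markers in the result was not tested.

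Against the RIPK3 triple KO, which keeps IKKβ and lacks RIPK3, more type I genes passed. Samd9l, Ifit1, Oas3, Irf7, Phf11a, Oasl1 and Cmpk2 were higher in the IKKβ triple KO, 7 of 33 with 0 lower, where 0.627% of all genes were called higher. Differences were above 0 for 29 of the 33, with a median of 0.51 (all genes −0.0082), and for 16 the groups did not overlap, as for 3.68% of all genes. None of the 8 IFN-γ type genes passed. At an unadjusted p under 0.05, 3 of the 8 were higher, beside 22 of the 33 type I genes and 7.87% of all genes. The median of the 8 was 0.21. Cell markers moved with this comparison, though 0 passed the test. The 8 neutrophil markers were all higher in the IKKβ triple KO, with a median difference of 1.08 (6 at an unadjusted p under 0.05). The medians were 0.89 for erythroid, 0.42 for T and NK cell (5 of 8 at an unadjusted p under 0.05) and 0.20 for B cell markers. The neutrophil mean was 8.65 to 9.62 in the IKKβ triple KO and 7.10 to 8.94 in the RIPK3 triple KO. RIPK3 triple KO replicate 4 stood apart from the other 3 arrays of its genotype, with means of 8.94 against 7.10 to 7.86 for neutrophil, 8.12 against 6.30 to 6.69 for erythroid and 9.29 against 8.72 to 8.81 for macrophage markers. It was the lowest of them for 19 of the 33 type I genes, and without it 5 members were called. The part of these markers in the result was not tested.

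Ifit1 read 6.23, 6.07, 6.27 and 5.72 in the RIPK3 triple KO, below every IKKβ triple KO value given above. It was 1.37 ± 0.21 higher in the IKKβ triple KO (2.58-fold, adjusted p 0.00404), and passed with each array left out. Oas3 read 4.35, 5.16, 5.66 and 5.06 in the IKKβ triple KO and 3.82, 3.82, 3.77 and 4.04 in the RIPK3 triple KO, a difference of 1.19 ± 0.24 or 2.28-fold (adjusted p 0.0251). Irf7 read 7.22, 7.27, 7.23 and 6.84 in the RIPK3 triple KO, and was 0.93 ± 0.21 higher in the IKKβ triple KO (1.91-fold, adjusted p 0.0388). For each of the 3 genes the groups were apart.

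Oasl1, a regulator related to the oligoadenylate synthetases, read 6.57, 6.85, 7.23 and 6.98 in the IKKβ triple KO and 6.23, 5.96, 5.99 and 6.27 in the RIPK3 triple KO. It was 0.80 ± 0.17 higher (1.74-fold, adjusted p 0.0292). Cmpk2, a mitochondrial nucleotide kinase, read 6.15, 6.18, 6.51 and 6.64 in the IKKβ triple KO and 5.80, 5.84, 5.86 and 5.68 in the RIPK3 triple KO, higher by 0.57 ± 0.12 (1.49-fold, adjusted p 0.0281). Phf11a read 4.12, 4.66, 4.60 and 4.18 in the RIPK3 triple KO and was 0.81 ± 0.19 higher in the IKKβ triple KO (1.75-fold, adjusted p 0.0469). These calls lie near the threshold: leaving out any 1 of the 8 arrays ended the Phf11a call (adjusted p up to 0.138), and any but IKKβ triple KO replicate 1 that of Irf7 (up to 0.12). The Oas3 call ended without RIPK3 triple KO replicate 1, 2 or 3 or IKKβ triple KO replicate 2, 3 or 4 (up to 0.0776), and that of Oasl1 without RIPK3 triple KO replicate 2 or 3 or IKKβ triple KO replicate 2, 3 or 4 (up to 0.094). That of Cmpk2 ended without any 1 RIPK3 triple KO array or IKKβ triple KO replicate 3 or 4 (up to 0.0887). In a model of those genotypes alone the calls of Samd9l, Ifit1 and Phf11a were left, and those of Oas3, Irf7, Oasl1 and Cmpk2 were not (adjusted p 0.0615 to 0.105). Just outside it stood Xaf1 at 0.69 (adjusted p 0.0501), Dhx58 at 0.90 (0.0541), Ifit3 at 0.92 (0.055), Rsad2 at 1.22 (0.0598) and Mx1 at 0.76 (0.0672). Usp18, called against the double KO, differed by only 0.18 here (adjusted p 0.567). Its RIPK3 triple KO values of 7.62, 7.75, 8.06 and 7.62 reach into those of the IKKβ triple KO.

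**Figure D4:**
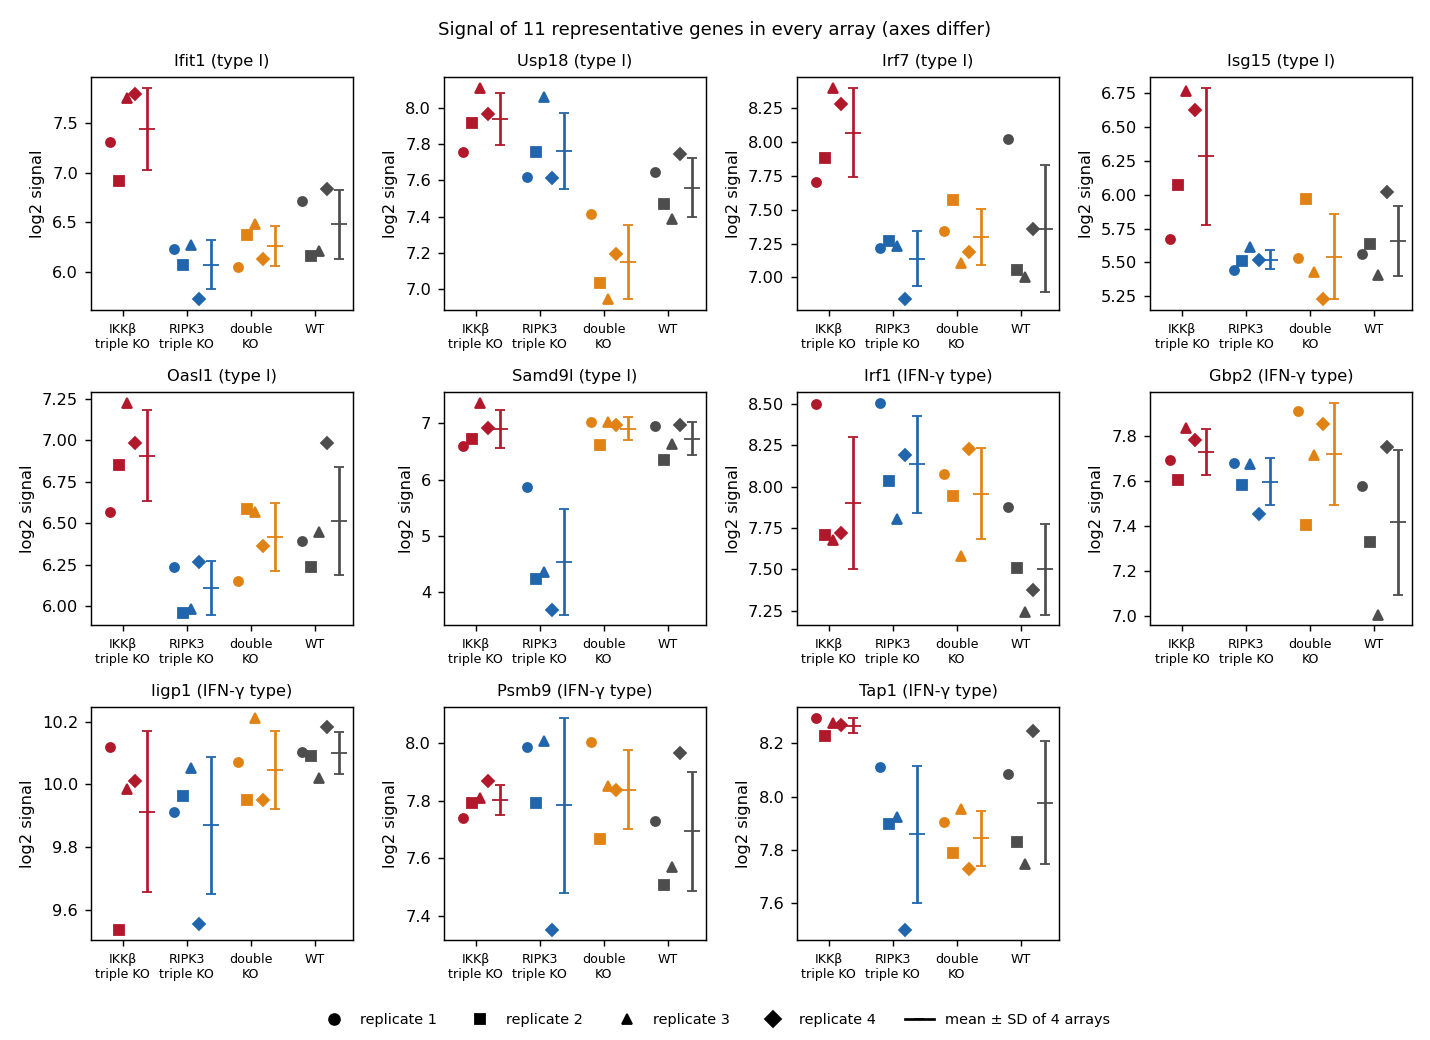
Log2 intensity of representative members on each array (points) with the group mean and SD, by genotype, for the type I genes Ifit1, Usp18, Irf7, Isg15, Oasl1 and Samd9l and the IFN-γ type genes Irf1, Gbp2, Iigp1, Psmb9 and Tap1. Ifit1 is highest on the IKKβ triple KO arrays (6.92 to 7.79), Samd9l is low only on the RIPK3 triple KO arrays (3.70 to 5.87), and Iigp1 overlaps across the genotypes.

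Samd9l, an antiviral and growth-restraining gene, had its own pattern. It read 5.87, 4.23, 4.37 and 3.70 in the RIPK3 triple KO, against 6.59, 6.72, 7.36 and 6.91 in the IKKβ triple KO, 7.01, 6.61, 7.02 and 6.97 in the double KO and 6.94, 6.35, 6.63 and 6.97 in WT. All 4 RIPK3 triple KO arrays lay below all 12 others, and replicate 1 of that genotype lay well above its other 3. The difference was −2.36 ± 0.34 against the double KO (5.14-fold lower, adjusted p 0.00743), −2.18 ± 0.34 against WT (4.53-fold lower, adjusted p 0.00286), and 2.35 ± 0.34 for the IKKβ triple KO over the RIPK3 triple KO (5.11-fold, adjusted p 0.00287). All 3 calls held with each array left out in turn. In models of only the 2 genotypes compared, the adjusted p was 0.101 against the double KO and 0.0531 against WT. Between the IKKβ triple KO and the double KO the 95% interval was −0.73 to 0.71.

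The RIPK3 triple KO had 1 member called against the double KO. Samd9l was the 1 type I gene of 33 called, lower, where 0.149% of all genes were called lower, and 0 of 8 IFN-γ type genes were called (0 at an unadjusted p under 0.05, where 11.1% of all genes were). The median differences were −0.10 for type I genes, 23 of 33 below 0, and −0.02 for the IFN-γ type, 4 of 8 below 0. Usp18 was apart, at 7.62 to 8.06 in the RIPK3 triple KO and 6.95 to 7.41 in the double KO, with a difference of 0.62 and an adjusted p of 0.065. It passed under 5 of the alternatives. Oas3 was also apart, and lower, at 3.77 to 4.04 in the RIPK3 triple KO and 4.17 to 4.58 in the double KO. Against WT, Samd9l was again the 1 type I gene called lower (1.16% of all genes) and 0 of 8 IFN-γ type genes passed (1, higher, at an unadjusted p under 0.05, where 7.81% of all genes were higher). Median differences were −0.14 for type I genes, 25 of 33 below 0, and 0.02 for the IFN-γ type, 4 of 8 below 0. The quartiles of the type I differences were −0.40 and −0.05, where those of all genes were −0.12 and 0.10. After Samd9l the smallest adjusted p was that of Oas3, at −0.89 (0.0732). Irf1 read 8.51, 8.04, 7.80 and 8.19 in the RIPK3 triple KO and 7.88, 7.51, 7.24 and 7.38 in WT, a difference of 0.63 (adjusted p 0.149). All 8 neutrophil markers were lower in the RIPK3 triple KO than in the double KO (median −0.9701, 5 at an unadjusted p under 0.05). All 8 were also lower than in WT (median −1.1951, 8 at an unadjusted p under 0.05). Erythroid medians were −0.4988 against the double KO (4 lower, 2 higher) and −0.8888 against WT (5 lower, 1 higher). None of these markers passed the test, and their part in the result was not tested.

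In the double KO against WT, no interferon-stimulated gene was called: 0 of 33 type I genes and 0 of 8 IFN-γ type genes by limma, where 3.31% of all genes were called in either direction. At an unadjusted p under 0.05, 2 type I genes were lower and 1 IFN-γ type gene was higher, where 7.81% of all genes were lower and 8.61% higher. The median differences were −0.10 for type I genes, 23 of 33 below 0, and 0.04 for the IFN-γ type. Ifit1 read 6.06 to 6.48 in the double KO and 6.16 to 6.84 in WT (−0.22, adjusted p 0.707). Usp18 read 6.95 to 7.41 in the double KO and 7.39 to 7.74 in WT (−0.41, adjusted p 0.121). Irf1 read 7.58 to 8.23 in the double KO and 7.24 to 7.88 in WT (0.46, adjusted p 0.343, 95% interval 0.01 to 0.90). The 4 double KO arrays had type I means of 6.58 to 6.77, inside the WT range of 6.55 to 7.02.

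The IKKβ triple KO against WT also gave no call: 0 of 33 and 0 of 8 by limma, where 0.0372% of all genes were called in either direction. At an unadjusted p under 0.05, 12 type I and 4 IFN-γ type genes were higher, where 2.77% of all genes were, and none was lower. Differences were above 0 for 31 of the 33 type I genes, with a median of 0.34, and for 7 of the 8 IFN-γ type genes, with a median of 0.27. The groups did not overlap for Ifit1, Usp18, Ifi27, Cmpk2 and Phf11a, 5 of 33, where 1.49% of all genes had every IKKβ triple KO array above every WT array. Ifit1 read 6.71, 6.16, 6.21 and 6.84 in WT, and the difference of 0.96 had an adjusted p of 0.215. Some WT arrays reached the IKKβ triple KO range in other genes: Irf7 read 7.71 to 8.40 in the IKKβ triple KO and 8.02 in WT replicate 1, and Oas3 read 4.35 to 5.66 in the IKKβ triple KO and 5.29 in WT replicate 1. WT replicate 4, as high in the type I mean as replicate 1, had a macrophage marker mean of 8.61 and the lowest plasmacytoid dendritic cell mean of the 16 arrays (5.28). The type I median without each array in turn lay between 0.17 and 0.48.

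The genes around the list were read the same way. Of 10 measured genes for interferons and the cytokines that induce interferon gamma, 0 passed in any of the 6 comparisons. The share of all genes called in either direction was 3.31% in the double KO against WT and 0.0372% in the IKKβ triple KO against WT. At such shares, 0 of 10 says little about these genes. Ifnb1, the first type I interferon made by most cells, read 2.41 to 3.10 and Ifng 3.29 to 3.74 over the 16 arrays, near the lower end of the scale, where an array tells little about level. In the double KO against WT 2.17% of all genes were called higher. Of 18 genes of nucleic acid sensing, Ddx58 (the RNA sensor RIG-I) and Ikbke (a kinase upstream of interferon induction) were higher in the double KO than in WT, by 0.62 ± 0.13 and 0.93 ± 0.19 (adjusted p 0.0168 each). The Ddx58 call ended without WT replicate 2 or double KO replicate 1 or 3 (highest adjusted p 0.0584), that of Ikbke without WT replicate 2, 3 or 4 or double KO replicate 4 (up to 0.0648), and both in a model of those genotypes alone (0.0684 and 0.103). Of 13 measured receptor and JAK-STAT genes, Ifngr1 and Ifngr2, the chains of the interferon gamma receptor, were higher in the double KO than in WT. Ifngr1 read 10.09, 9.64, 10.13 and 9.86 in the double KO and 9.43, 8.95, 9.31 and 9.13 in WT (0.72 ± 0.13, adjusted p 0.00693, and 0.0552 in a model of those genotypes alone). Ifngr2 differed by 0.64 ± 0.10 (adjusted p 0.00294).

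Of 17 other interferon gamma targets and MHC class I genes, 5 were higher in the double KO than in WT and 0 were lower. Ubd encodes a ubiquitin-like protein that also answers to tumour necrosis factor. It read 10.39, 10.29, 10.31 and 10.25 in the double KO and 4.49, 4.09, 4.06 and 4.02 in WT, a log2 difference of 6.15 ± 0.23 (adjusted p 2.02e-09). No fold is given, since the WT values lie below the median of every array and may be background. Cxcl10, a chemokine that recruits T cells and is also an NF-κB target, read 10.01, 9.98, 9.78 and 10.65 in the double KO and 7.58, 6.92, 6.69 and 7.15 in WT. It was 3.02 ± 0.34 higher (8.11-fold, adjusted p 0.000171). Tapbp, which loads peptide on MHC class I, differed by 0.68 ± 0.10 (adjusted p 0.00206), and the immunoproteasome subunit Psmb10 by 0.51 ± 0.09 (0.00399, and 0.0618 in a model of those genotypes alone). H2-K1 differed by 0.38 (adjusted p 0.0458), a call that ended without any 1 array but WT replicate 1. The H2-K1 call also ended in a model of those genotypes alone (0.107), with median centring (0.0582) and with a replicate block (0.0785). In the same comparison the members Psmb8, Psmb9 and Tap1 of the same machinery differed by 0.14, 0.15 and −0.13 (adjusted p 0.642 to 0.712).

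In the IKKβ triple KO, Ubd did not follow the type I genes, and Cxcl10 was not called against either of the other knockouts. Ubd read 9.39, 8.54, 7.84 and 8.69 there, and was lower than in the double KO (−1.70 ± 0.23, 3.25-fold, adjusted p 0.00181) and lower than in the RIPK3 triple KO (−1.57, adjusted p 0.0033), calls that ended in models of only the genotypes compared (0.0517 and 0.0525), yet higher than in WT (4.45, adjusted p 2.17e-07). Among the 4 lists around the members, Ubd was the 1 gene called between the IKKβ triple KO and the double KO, where 0.903% of all genes were called lower. Cxcl10 read 10.50, 10.19, 9.004 and 9.28 in the IKKβ triple KO, 9.16, 9.16, 8.80 and 10.14 in the RIPK3 triple KO, and above every WT array in both. Against WT it was 2.66 ± 0.34 higher in the IKKβ triple KO (adjusted p 0.00951, up to 0.0639 without WT replicate 2 or 3 or IKKβ triple KO replicate 2, and 0.218 in a model of those genotypes alone) and 2.23 higher in the RIPK3 triple KO (adjusted p 0.00265). Within the IKKβ triple KO, replicates 3 and 4 were the highest in type I genes and the lowest in Cxcl10. Where 1.94% of all genes were called higher than WT, the RIPK3 triple KO also had Ubd, Tapbp, Psmb10 and Cxcl9 higher than WT (6.02, 0.82, 0.52 and 0.71, adjusted p 2.74e-09 to 0.00822), with Ifngr2 at 0.52 (0.0144), Ddx58 at 0.55 (0.0357) and Ikbke at 0.94 (0.0172). The Ifngr2 call ended without WT replicate 4 (adjusted p 0.0523), that of Ikbke without WT replicate 2, 3 or 4 (up to 0.063), and that of Ddx58 without WT replicate 2 or 3 or RIPK3 triple KO replicate 1, 2 or 3 (up to 0.111). All 3, and that of Psmb10, also ended in a model of those genotypes alone (0.0571 to 0.124). Cxcl9 and Tapbp were lower in the IKKβ triple KO than in the RIPK3 triple KO, by −0.62 and −0.44 (adjusted p 0.0263 and 0.048), where 1.38% of all genes were called lower. The Cxcl9 call ended without RIPK3 triple KO replicate 3 or 4 or IKKβ triple KO replicate 2 or 4 (adjusted p up to 0.0885), and that of Tapbp without any 1 array but IKKβ triple KO replicate 1 (up to 0.149), and both in a model of those genotypes alone (0.0957 and 0.14). Between the RIPK3 triple KO and the double KO, 0 of the genes in these 4 lists passed, where 0.149% of all genes were called lower. With 1 probe set per gene or the mean of probe sets, 1 of the 17 other interferon gamma targets and MHC class I genes passed.

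**Figure D5:**
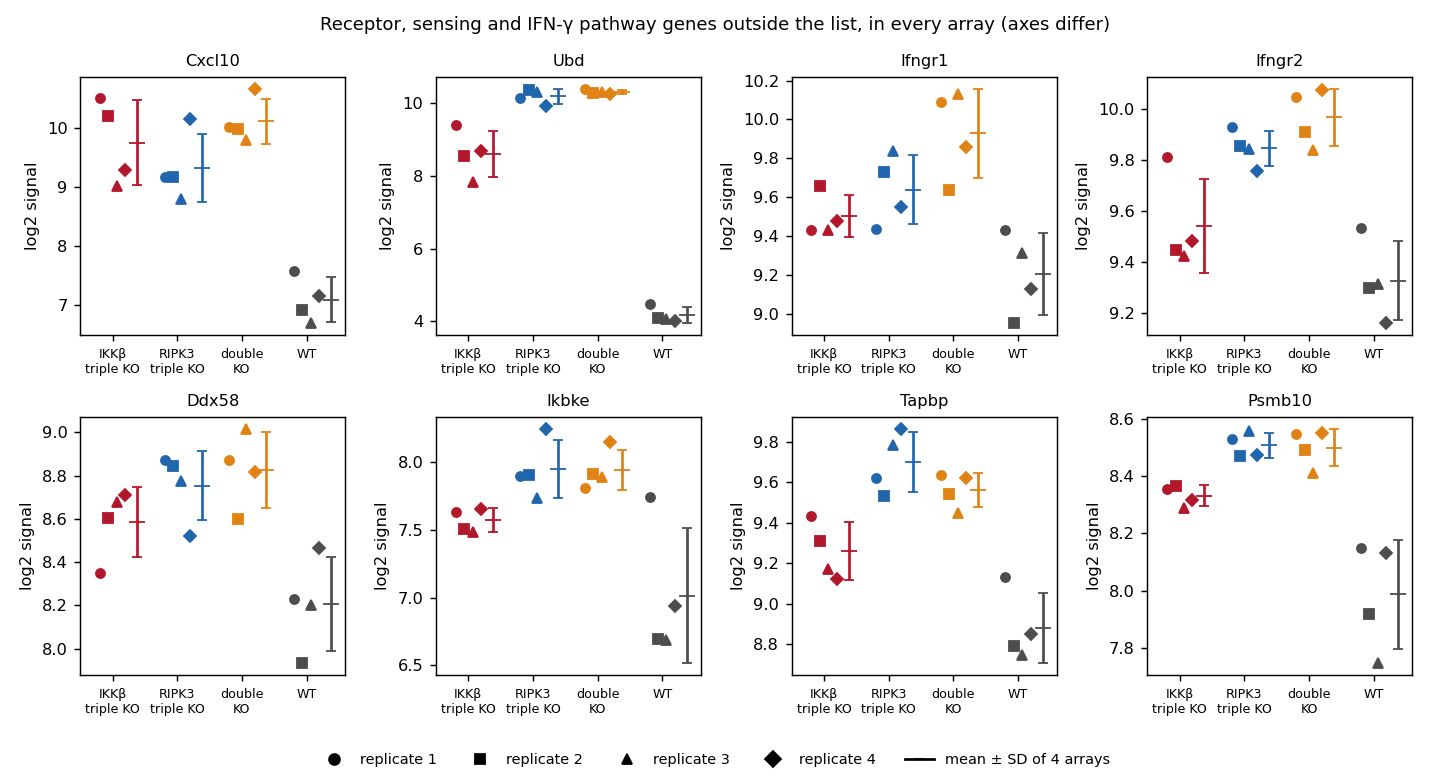
Log2 intensity on each array (points) with the group mean and SD, by genotype, for Cxcl10, Ubd, Ifngr1, Ifngr2, Ddx58, Ikbke, Tapbp and Psmb10. Ubd and Cxcl10 lie far below all other arrays in WT (4.02 to 4.49 and 6.69 to 7.58), and Ubd in the IKKβ triple KO (7.84 to 9.39) lies below the double KO (10.25 to 10.39).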

How the data were processed

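RNA of whole liver from 16 mice was hybridised to 1-colour arrays. The deposited table holds log2 intensities that the authors normalised with RMA, per the submitters' processing notes. No software version or definition of the probe sets is given in the sources used here. RMA removes background and makes arrays share a distribution of probe intensities, so detection calls are absent, weak genes are compressed, and small shifts of all genes cannot be seen. Of 35556 probe sets, 21218 carry 1 gene symbol, 1881 several and 12457 none in the platform annotation; the brightest with 1 symbol stood for its gene (only Irf1 among the members had more than 1).

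Differences came from limma 3.58.1 (R 4.3.3): lmFit and eBayes on all 35556 probe sets, 1 mean per genotype over 16 arrays, 12 residual degrees of freedom, Benjamini-Hochberg adjustment and a threshold of 0.05. The procedure was tested on simulated data. Groups come from the genotype labels. The mouse identifiers in the labels differ, so replicates are separate animals, and precision is limited by 4 arrays per group. Members called in a comparison, a fixed set of representatives, and up to 4 called genes of each neighbouring list were named. The members and lists were chosen with earlier results of these data known. Same-numbered arrays are different mice and were not paired in the main model. Over 24 pairs of same-numbered arrays the correlation of deviations from the group means was −0.102 to 0.159. Between the IKKβ triple KO and the RIPK3 triple KO, 6 of 8 arrays correlated best with their own number, so a shared effect of replicate number is not excluded. Alternatives were array weights, another round of quantile normalisation, median centring, a filter on dim probe sets, 1 probe set per gene, the mean of probe sets, a trended robust variance, plate row as a random block, a replicate block, models of only the groups compared, and each array left out.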

Additional observations from a re-analysis of the deposited data

Results flagged for a closer look

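In 172 sets of 4 values (each measured member in each genotype, with the list means), 7 had 1 array far from its other 3 by Dixon's test. The test picks out about 1 in 20 such sets by chance, so 7 is not more than chance would give. Irf1 read 8.50 in IKKβ triple KO replicate 1, against 7.68 to 7.72 on the other 3 arrays of that genotype. On the same array Eif2ak2 was low at 7.69 (others 8.15 to 8.21), as was Ifi27 at 7.34 (others 7.61 to 7.66). Trim25 was low at 8.77 in IKKβ triple KO replicate 2 (others 8.90 to 8.93) and high at 9.06 in RIPK3 triple KO replicate 1 (others 8.90 to 8.91). Irf7 was low at 6.84 in RIPK3 triple KO replicate 4 (others 7.22 to 7.27). Samd9l was low at 6.61 in double KO replicate 2 (others 6.97 to 7.02).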

How the results depend on the processing

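No called member changed sign under any alternative, and the type I medians kept their sign in all 6 comparisons. The IFN-γ type median changed sign in the comparisons of the RIPK3 triple KO with the double KO (−0.10 to 0.11, and up to 0.04 under another alternative) and with WT (−0.12 to 0.11) with 1 array left out. Counts of members called moved. Between the IKKβ triple KO and the double KO the count was 3, 8 with array weights, and 1 to 4 with 1 array left out (1 without IKKβ triple KO replicate 3 or 4 or double KO replicate 4). Between the IKKβ triple KO and the RIPK3 triple KO it was 7, 3 in a model of those groups alone, 12 with a filter on dim probe sets, 13 with 1 probe set per gene or with the mean of probe sets, 12 with array weights, and 2 to 11 with 1 array left out (2 without RIPK3 triple KO replicate 2 or 3 or IKKβ triple KO replicate 3 or 4, and 11 without IKKβ triple KO replicate 1). Between the RIPK3 triple KO and the double KO it was 1, 0 in a model of those groups alone, and 2, with Usp18 added, with dim probe sets left out, quantile normalisation, centring, 1 probe set per gene or the mean of probe sets. Between the RIPK3 triple KO and WT it was 1, 0 in a model of those groups alone, 2 with 1 probe set per gene or the mean of probe sets, and 1 to 2 with 1 array left out. The cause was not tested. In the double KO and the IKKβ triple KO against WT it was 0 under every alternative.

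With a replicate block the count was 2 for the RIPK3 triple KO against WT (Irf1 added, adjusted p 0.0263), 6 for the IKKβ triple KO against the RIPK3 triple KO (Irf7 and Phf11a lost at 0.0741 and 0.064, Rsad2 added), and in the other comparisons as without it (3, 1, 0 and 0). Same-numbered arrays are different mice, and 6 of 8 arrays at most correlated best with their own number. Plate row as a random block changed no count (correlation 0.013). That block cannot remove a difference between columns, or between rows A to D and rows E to H, which hold different genotypes. Without signal-over-background calls, weak genes such as the interferons themselves cannot be called present or absent.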

Other observations

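Probe sets shared with a neighbouring gene read 3 members that were not measured alone. The one for Irgm2 and Igtp averaged 8.59 ± 0.28 in the IKKβ triple KO, 8.40 ± 0.55 in the RIPK3 triple KO, 8.16 ± 0.23 in the double KO and 8.70 ± 0.34 in WT (SD, n = 4 each). The one for Olfr56 and Ifi47 averaged 6.17 ± 0.18, 6.17 ± 0.14, 6.27 ± 0.23 and 6.03 ± 0.28 in the same order. The 2 probe sets for Dtx3l and Parp9 averaged 7.70 ± 0.15 and 8.61 ± 0.15 in the IKKβ triple KO, 7.56 ± 0.13 and 8.58 ± 0.12 in the RIPK3 triple KO, 7.43 ± 0.14 and 8.48 ± 0.20 in the double KO, and 7.66 ± 0.13 and 8.47 ± 0.14 in WT. None of these levels can be given to 1 gene.

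Among the cell markers, Siglech, a surface receptor of plasmacytoid dendritic cells, was higher in the double KO (5.42 to 6.02) than in WT (4.56 to 4.96), by 0.87 (adjusted p 0.0191, up to 0.0695 without WT replicate 4 or double KO replicate 1), the 1 marker called of 6 in its list, where 2.17% of all genes were called higher. Of those 6 markers 4 were higher and 2 lower, with a median of only 0.12. Gzma, a protease of T and NK cells, was lower in the RIPK3 triple KO (4.90 to 5.49) than in the double KO (5.70 to 5.91) and in WT (5.65 to 6.03), by −0.62 and −0.70 (adjusted p 0.0383 and 0.00448). It was the 1 called of 8 in its list, where 0.149% and 1.16% of all genes were called lower. Against the double KO all 8 markers were lower (median −0.41). Against WT 5 were lower and 3 higher (median −0.12). The Gzma call against the double KO held under 5 of 10 alternatives and in 1 of 8 fits with an array left out (adjusted p up to 0.153). In models of only the 2 genotypes compared both calls ended (adjusted p 0.182 and 0.0672). The other Irf1 probe set averaged 3.88 in the IKKβ triple KO, 3.72 in the RIPK3 triple KO, 3.72 in the double KO and 3.53 in WT, far dimmer than the one used.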
